A study of Mus musculus with 6 samples.

Results

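The pro-apoptotic BCL2 family was followed at the mRNA level in mouse splenic B cells that had been stimulated with CpG DNA or left unstimulated. Its members were chosen by symbol as 10 genes of the 23420 in the deposited values: Bcl2l11, Bid, Bbc3, Pmaip1, Bmf, Bad, Bik and Hrk, which encode BH3-only proteins, and Bax and Bak1, which encode the pore-forming effectors. All 10 were found in the values. The cells were bead-purified B cells from the spleens of WT BALB/c mice that were 7 to 11 weeks old, 3 mice in all, with no engineered allele in either group. They were cultured for 4 hours with 10 μg/ml of CpG ODN 1826, a synthetic oligonucleotide agonist of the DNA sensor TLR9, or without it, as 10 M cells at 10 M per ml (M, 1e6). Each condition had 3 samples with the numbers 1 to 3, of which 1 and 2 were labeled female and 3 male. In the study these BALB/c samples served to define the transcripts that TLR9 induces in B cells.

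BCL2 family proteins decide whether the outer membrane of mitochondria stays intact. Anti-apoptotic members such as BCL2 and MCL1 bind BAX and BAK1 and the BH3-only proteins in a surface groove, BH3-only proteins are induced or activated by stress and occupy that groove or engage BAX and BAK1 directly, and free BAX and BAK1 form the pores through which cytochrome c leaves. BIM, the product of Bcl2l11, is known as a main limit on the life span of resting B cells.

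What the members share is the BH3 segment, a helix that enters the groove of the anti-apoptotic proteins. The core pattern searched was a leucine, 3 residues of any kind, a glycine, alanine or serine, an aspartate, and then an aspartate, glutamate or glutamine. One coding transcript of each gene was translated from the GENCODE transcripts of GRCm38, and 9 of the 10 members held the pattern 1 time. The 103 residues translated for Pmaip1 held no match, which describes this pattern of letters and not whether a BH3 segment is present. The same pattern was present in 1576 of 21492 proteins (7.33%), so the letters alone do not mark a BH3 protein. The 45 coding bases around the core are given for the 7 members with a match that passed the filter on low values, since they are the feature that makes these differently regulated genes 1 family. Each is read 5′ to 3′ on the coding strand, with 4 codons on either side of the 7 core codons, and capitals mark the codons of the core leucine and the core aspartate.
Bcl2l11 (chr2:128147138-128147182, plus strand, exon 3 of 4): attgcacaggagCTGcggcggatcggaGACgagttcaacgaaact
Bid (chr6:120897283-120897327, minus strand, exon 4 of 6): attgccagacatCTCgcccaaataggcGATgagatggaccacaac
Bbc3 (chr7:16313761-16313805, plus strand, exon 3 of 4): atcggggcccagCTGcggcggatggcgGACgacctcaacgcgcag
Bmf (chr2:118545094-118545138, minus strand, exon 4 of 5): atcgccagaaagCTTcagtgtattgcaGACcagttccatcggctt
Bad (chr19:6950780-6950824, plus strand, exon 3 of 4): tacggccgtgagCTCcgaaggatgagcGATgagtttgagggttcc
Bax (chr7:45465991-45466035, minus strand, exon 3 of 6): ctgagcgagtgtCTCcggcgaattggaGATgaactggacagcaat
Bak1 (chr17:27022525-27022569, minus strand, exon 4 of 6): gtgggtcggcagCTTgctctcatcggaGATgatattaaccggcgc

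Values are log2 counts per M reads (log2 CPM), quantile normalized by the authors, and each group mean is given ± SD over n = 3. On this scale 10 reads correspond to about -0.76 and a gene without reads to about -5.15, the most common value. From this level about 17.8 M reads on genes per library follow, and the 6 samples sum to between 992384 and 1012396 CPM. In at least 1 sample 4426 genes lay below this level, so read numbers given here are approximate. Quantile normalized values do not keep the depth of single libraries. All 10 B cell markers were above 10 reads, with a median of 8.91 log2 CPM. Among T cell markers Cd3e, Cd4 and Cd8a were at or near the value for no reads in both groups, and Lck was the only 1 of 8 above 10 reads. Summed marker levels differed between the conditions without overlap for B cells (10443 to 12322 CPM with CpG and 12988 to 14117 without), T cells (125 to 142 and 71.5 to 92.3, nearly all of it Lck), NK cells (1.59 to 2.67 and 3.12 to 3.47), plasma cells (2714 to 2977 and 2027 to 2316, mostly Irf4) and plasmacytoid dendritic cells (127 to 134 and 252 to 261, nearly all of it Tcf4 and Bst2). In the limma test described below, single markers of a list went both ways at an adjusted p under 0.05. Of 10 B cell markers 3 were higher and 5 lower, and of 5 plasma cell markers 1 was higher and 3 lower. Of 3 plasmacytoid dendritic cell markers tested 1 was higher and 2 lower. Lck, Irf4, Tcf4 and Bst2 are also expressed by B cells, and the part of the summed marker levels in the results was not tested. Those of myeloid cells overlapped (10.4 to 16.2 and 7.90 to 15.3 CPM, with 4 of 9 markers above 10 reads). The samples numbered 2 stood apart in both groups by their erythroid transcripts. The summed level of 10 erythroid markers, of which 7 were above 10 reads and Hba-a1 and Hba-a2 had no reads, was 401, 5007 and 632 CPM in CpG-stimulated samples 1, 2 and 3, and 424, 3941 and 523 CPM in unstimulated samples 1, 2 and 3. In bulk RNA of this kind, fewer cells of a type and less RNA per cell cannot be told apart.

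The 3 stimulated samples were set against the 3 unstimulated ones with limma, on the 11233 genes that exceeded 10 reads in 3 samples or more, with Benjamini-Hochberg adjustment of the p values. An adjusted p under 0.05 was called a change. Of the 10 members, 8 passed the filter and all 8 were called: Bid, Bbc3 and Bax were higher after CpG, and Bcl2l11, Pmaip1, Bmf, Bad and Bak1 were lower. Among all genes tested 37.6% were called higher and 36.7% lower, so calls in both directions were common in these cells. With a log2FC beyond 1 in addition, 1 member was higher (Bid) and 2 were lower (Bmf and Bad), where 15.8% of all genes tested were higher and 15.3% lower by that rule. The 3 CpG-stimulated samples did not overlap the 3 unstimulated samples in 7 of the 8 members, all but Pmaip1, against 77.7% of all genes. The median log2FC of the 8 members was -0.22, beside 0.0033 over all genes, whose median absolute log2FC was 0.635. The family was thus split in direction, and its share of calls has to be read against a background in which most genes moved. An exact permutation test could not go below p = 0.1 with 3 samples a group, which leaves the limma model for single genes. The limma p values set each difference against the spread within the groups, moderated by a variance trend over all genes tested.

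**Figure D1:**
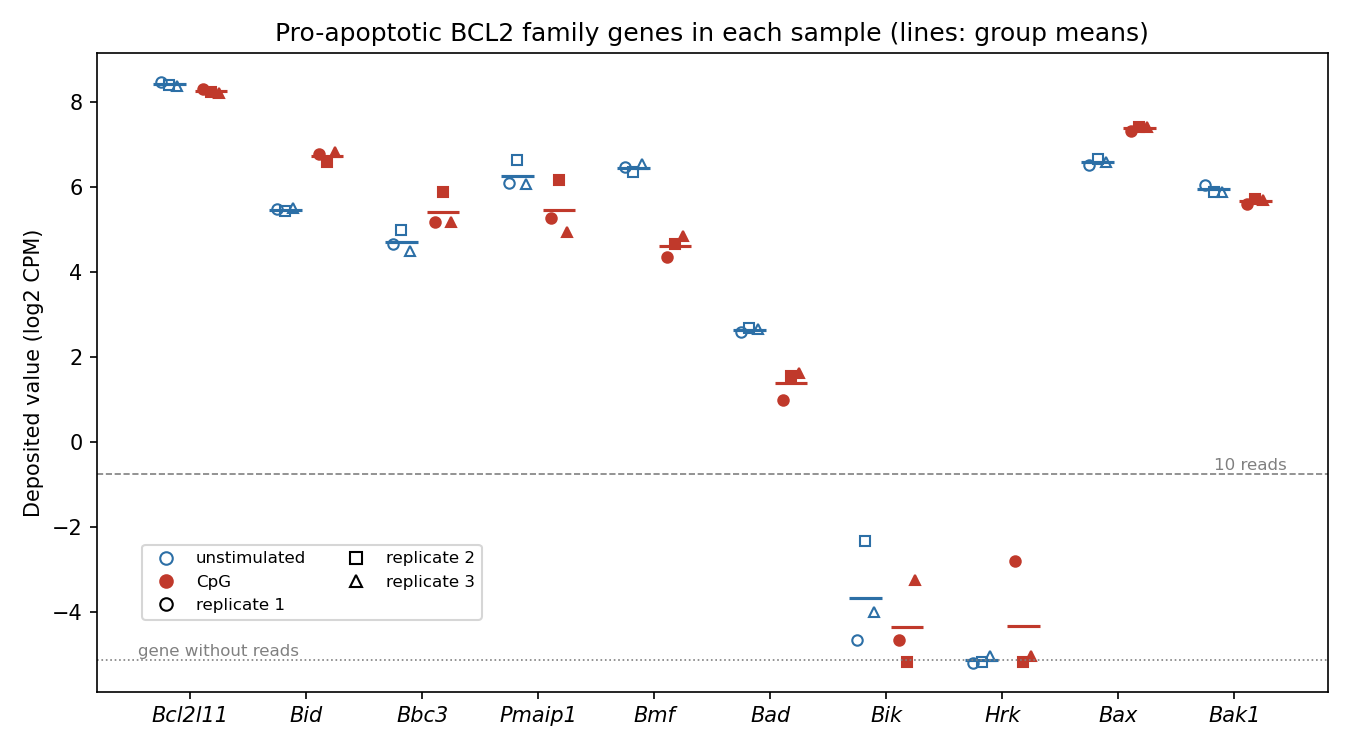
Deposited value (log2 CPM) of each of the 10 pro-apoptotic BCL2 family genes in each sample, with unstimulated samples as open blue symbols, CpG-stimulated samples as filled red symbols, the replicate number as the shape and the group mean as a line. The dashed line marks 10 reads (-0.76) and the dotted line a gene without reads (-5.15). Bid, Bbc3 and Bax lie higher in the CpG-stimulated samples and Bmf and Bad lower, Bcl2l11 and Bak1 are only slightly lower, the Pmaip1 samples overlap, and Bik and Hrk stay under the 10-read line.

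The activator BH3-only genes, whose proteins can engage BAX and BAK1 directly, did not move together: Bid rose 2.40-fold, Bbc3 rose 1.63-fold and Bcl2l11 fell slightly. Bid, on chromosome 6 from 120891930 to 120916853, encodes the protein that death receptor signaling cleaves through caspase 8 and thereby links to mitochondria. It was at 6.78, 6.58 and 6.82 log2 CPM in CpG-stimulated samples 1, 2 and 3 and at 5.47, 5.42 and 5.49 in unstimulated samples 1, 2 and 3. Every CpG-stimulated sample was above every unstimulated sample, by far more than the spread within either group. The means were 6.73 ± 0.13 and 5.46 ± 0.037, with a log2FC of 1.27 (SE 0.076, 95% interval 1.10 to 1.44, adjusted p = 2.44e-07), higher than 89.5% of the log2FC values of all genes tested. The 3′ end of Bid shares 628 bases (17.7% of its exonic bases) with Bcl2l13 on the opposite strand, which had a log2FC of -0.0057 (adjusted p = 0.939).

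Bbc3, on chromosome 7 from 16308393 to 16318205, encodes PUMA, a potent BH3-only protein that p53 and FOXO factors are known to induce. Its values in CpG-stimulated samples 1, 2 and 3 were 5.17, 5.88 and 5.18 log2 CPM, against 4.65, 4.98 and 4.49 without stimulation. The sample numbered 2 was the highest in each group, and the lowest stimulated sample was still above the highest unstimulated one. Bbc3 went from 4.71 ± 0.25 to 5.41 ± 0.41, a log2FC of 0.70 (SE 0.19, 95% interval 0.28 to 1.13, adjusted p = 0.00666). Its log2FC was 0.47 (adjusted p = 0.00728) without CpG-stimulated sample 2 and 0.60 (adjusted p = 0.000666) without both samples numbered 2, the samples high in erythroid transcripts. With no filter on low values, the adjusted p of Bbc3 was 0.121, the highest over its 16 alternatives, which began at 4.70e-06.

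Bcl2l11, on chromosome 2 from 128126038 to 128162547, was the member with the most reads in both conditions. It was at 8.31, 8.24 and 8.21 log2 CPM in CpG-stimulated samples 1, 2 and 3 and at 8.47, 8.41 and 8.38 in unstimulated samples 1, 2 and 3. The stimulated samples lay just below the unstimulated ones, with no overlap. The means were 8.25 ± 0.053 and 8.42 ± 0.044, and the log2FC of -0.17 (SE 0.058, 95% interval -0.30 to -0.036, adjusted p = 0.0249) corresponds to a 1.12-fold lower level. This call passed in 9 of 16 alternatives, with adjusted p from 0.00824 to 0.140. It was lost without CpG-stimulated sample 3 (log2FC -0.14, adjusted p = 0.0991), unstimulated sample 1 (-0.14, 0.0868) or unstimulated sample 2 (-0.17, 0.0612), without any of the numbered pairs (adjusted p = 0.0621, 0.0605 and 0.140 for pairs 1, 2 and 3), and without a variance trend (adjusted p = 0.0552).

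The other BH3-only genes, whose proteins mainly occupy anti-apoptotic partners, were lower after CpG wherever they could be tested: Bmf fell 3.57-fold, Bad 2.39-fold and Pmaip1 1.76-fold. Bmf, on chromosome 2 from 118528757 to 118549687, encodes a BH3-only protein that is held at the actin-bound myosin motor in healthy cells. Its values were 4.36, 4.66 and 4.84 log2 CPM in CpG-stimulated samples 1, 2 and 3, and 6.46, 6.36 and 6.54 in the unstimulated samples. All stimulated samples were below all unstimulated ones by more than a whole log2 unit. From 6.45 ± 0.094 the mean of Bmf dropped to 4.62 ± 0.24, a log2FC of -1.83 (SE 0.11, 95% interval -2.09 to -1.58, adjusted p = 3.16e-07), and only 5.35% of all genes tested had a lower log2FC.

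Bad, on chromosome 19 from 6941861 to 6951899, encodes a BH3-only protein that survival kinases phosphorylate, upon which 14-3-3 proteins hold it in the cytosol. It was the least abundant member that could be tested, at 0.98, 1.54 and 1.62 log2 CPM in CpG-stimulated samples 1, 2 and 3 and 2.57, 2.68 and 2.66 in unstimulated samples 1, 2 and 3. These values correspond to roughly 34.6 to 54.1 reads after CpG and 105 to 114 reads without it. The groups did not overlap, and CpG-stimulated sample 1 was the lowest. The means were 1.38 ± 0.35 and 2.64 ± 0.058, with a log2FC of -1.26 (SE 0.19, 95% interval -1.69 to -0.83, adjusted p = 0.000187). Exons of Bad share 524 bases (20.5%) with Gpr137 on the opposite strand, which itself fell from 2.68 ± 0.19 to 1.68 ± 0.28 log2 CPM (adjusted p = 0.000657), and whether the counting used strand is not given in the sources used here, so reads of this overlap cannot be assigned to either gene.

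Pmaip1, on chromosome 18 from 66458533 to 66465565, encodes NOXA, which binds MCL1 with preference and promotes its degradation. It was at 5.27, 6.15 and 4.93 log2 CPM in CpG-stimulated samples 1, 2 and 3 and at 6.08, 6.63 and 6.08 in unstimulated samples 1, 2 and 3. The groups overlapped, since stimulated sample 2 was above unstimulated samples 1 and 3, while within each numbered pair the stimulated sample was the lower one. The means were 5.45 ± 0.63 and 6.26 ± 0.32, with a log2FC of -0.81 (SE 0.27, 95% interval -1.41 to -0.21, adjusted p = 0.0190). Without both samples numbered 2, which were highest in Pmaip1 and in erythroid transcripts, the log2FC was -0.98 (adjusted p = 0.000111). The call passed in 9 of 16 alternatives, with adjusted p from 5.72e-06 (the replicate number as a block) to 0.218. It was lost without CpG-stimulated sample 1 (log2FC -0.72, adjusted p = 0.0530), CpG-stimulated sample 3 (-0.55, 0.0713), unstimulated sample 2 (-0.63, 0.0734), pair 1 (-0.81, 0.0707) or pair 3 (-0.65, 0.0819), without a filter on low values (0.218) and without a variance trend (0.0702).

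Bik and Hrk, the remaining BH3-only genes, were at the edge of detection in these B cells. Bik, on chromosome 15 from 83526862 to 83544634, was at -4.68, -5.19 and -3.25 log2 CPM in CpG-stimulated samples and -4.68, -2.33 and -4.00 in unstimulated samples, so no sample held much more than 3 reads. Hrk, on chromosome 5 from 118164648 to 118189478 and best known from neurons, was at -2.81, -5.19 and -5.06 log2 CPM with CpG and -5.21, -5.19 and -5.06 without. Both lay under the filter and got no test, and a difference between the conditions was not detectable at this depth.

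The effector genes moved in opposite directions, Bax upward by 1.73-fold and Bak1 slightly downward by 1.21-fold. Bax, on chromosome 7 from 45461697 to 45466898, encodes the effector that resides largely in the cytosol until activated. It was at 7.32, 7.41 and 7.42 log2 CPM in CpG-stimulated samples 1, 2 and 3 and 6.52, 6.66 and 6.59 in unstimulated samples 1, 2 and 3. The groups were well apart, with little spread in either. The means were 7.38 ± 0.056 and 6.59 ± 0.073, with a log2FC of 0.79 (SE 0.064, 95% interval 0.65 to 0.94, adjusted p = 1.68e-06). Bax shares 192 exonic bases (12.2%) with the predicted gene Gm45808 on the same strand. Gm45808 has no entry in the deposited values, so the part of the shared bases in the change of Bax was not tested.

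Bak1, on chromosome 17 from 27019810 to 27029009, encodes the effector that is anchored in the mitochondrial membrane. Its values were 5.60, 5.72 and 5.68 log2 CPM in CpG-stimulated samples 1, 2 and 3, and 6.06, 5.89 and 5.88 in the unstimulated samples. The stimulated samples were all lower, and unstimulated sample 1 was the highest of the 6. Bak1 went from 5.94 ± 0.099 to 5.67 ± 0.059, a log2FC of -0.27 (SE 0.074, 95% interval -0.44 to -0.11, adjusted p = 0.00669). Without both samples numbered 1 its log2FC was -0.19 and the call was lost (adjusted p = 0.0730, the highest of 16 alternatives that began at 0.00291). Of its exonic bases 25.5% overlap Ggnbp1 on the opposite strand, which had a log2FC of 0.62 (adjusted p = 0.0873).

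**Figure D2:**
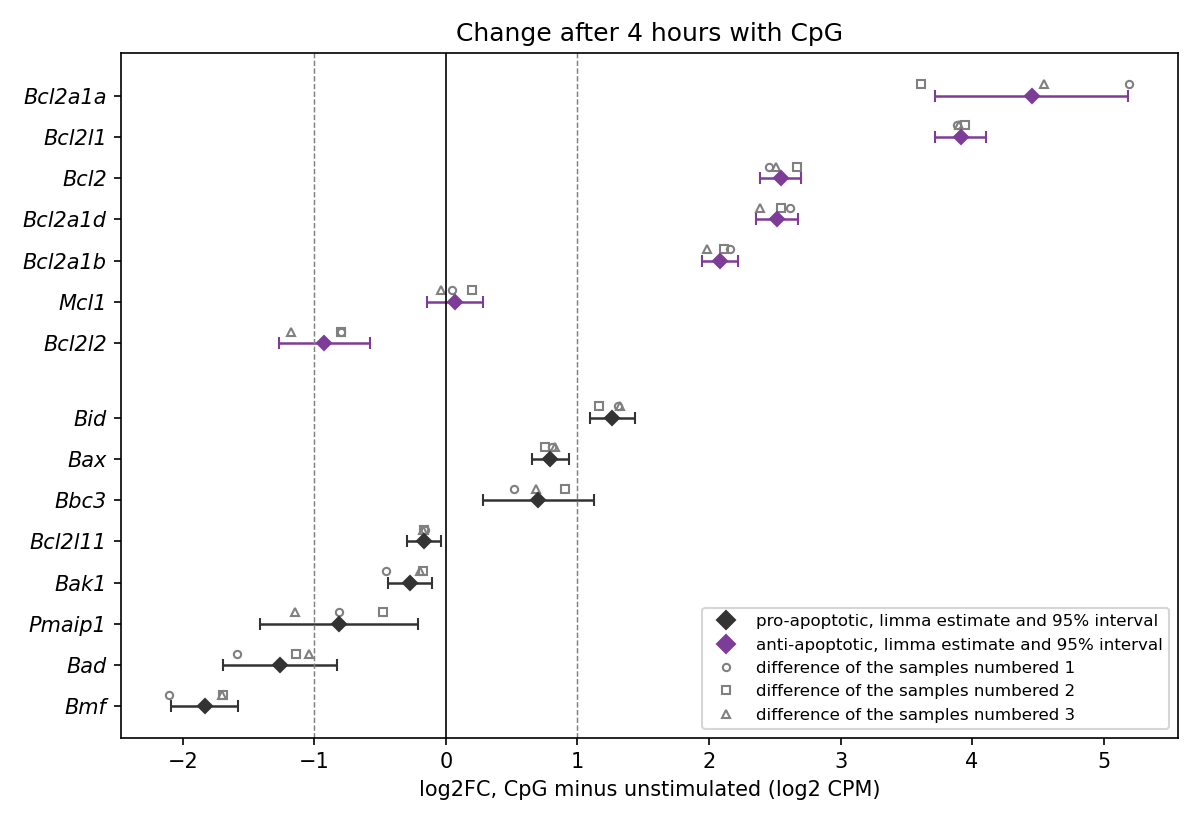
Log2FC (CpG-stimulated minus unstimulated, log2 CPM) of the 8 pro-apoptotic genes tested (black) and of 7 anti-apoptotic genes (purple), as the limma estimate (diamond) with its 95% interval, and, above each, the differences of samples with the same number in grey. The black line marks no change and dashed lines a log2FC of 1 and -1. Pro-apoptotic genes range from -1.83 (Bmf) to 1.27 (Bid), whereas 5 anti-apoptotic genes exceed 2.

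Promoters of the members were searched for short motifs, using RefSeq sequences of GRCm38.p6 that run from 250 bases before to 50 bases after each start site. For 8 of the 10 members 14 promoters were listed, with no entry for Pmaip1 and Bik. Both strands were searched for the E-box CACGTG, the FOXO motif GTAAACA, the TATA box TATAAA, and the consensus patterns of NF-kB sites and of p53 half-sites. The E-box letters were in 1 promoter each of Bax and Bbc3, and not in that of Bid, and 7.15% of 32851 mouse promoters hold them. FOXO letters were in 1 promoter each of Bcl2l11 and Bbc3, where 3.65% of all promoters have them. NF-kB consensus matches were found in a promoter of Bbc3 and one of Bmf (4.51% of all), and p53 half-site matches in the promoter of Bax and one of Bmf (8.36% of all). No member promoter held the TATA letters (13.6% of all). A match is a description of the letters and not a binding site. The promoters of Bax and Bbc3 with an E-box are printed because both genes rose, so the choice used these same data. A link between the letters and expression was not tested. Capitals mark the matches, which in Bax are the p53 half-site at -201 and E-boxes at -9 and 35, and in Bbc3 the E-box at -64, counted from the start site.
Bax (chr7:45466849-45467148, minus strand): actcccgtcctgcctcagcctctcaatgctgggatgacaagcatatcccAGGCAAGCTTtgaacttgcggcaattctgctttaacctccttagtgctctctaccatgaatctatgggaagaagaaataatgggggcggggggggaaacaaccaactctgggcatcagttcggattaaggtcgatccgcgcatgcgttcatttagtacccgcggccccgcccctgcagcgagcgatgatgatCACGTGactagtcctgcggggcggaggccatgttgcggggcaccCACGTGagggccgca
Bbc3 (chr7:16310181-16310480, plus strand): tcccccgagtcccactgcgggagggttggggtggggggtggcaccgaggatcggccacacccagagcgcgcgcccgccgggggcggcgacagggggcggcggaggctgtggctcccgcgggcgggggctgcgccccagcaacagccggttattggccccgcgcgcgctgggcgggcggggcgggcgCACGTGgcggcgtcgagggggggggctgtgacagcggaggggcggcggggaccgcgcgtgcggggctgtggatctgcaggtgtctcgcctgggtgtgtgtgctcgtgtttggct

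Levels of different genes were compared per length, as log2 CPM per kb of merged exons. In unstimulated B cells Bax had the highest level (5.93 ± 0.073), followed by Bcl2l11 (5.41 ± 0.044), Pmaip1 (4.81 ± 0.32), Bak1 (4.67 ± 0.099), Bmf (4.06 ± 0.094), Bid (3.63 ± 0.037), Bbc3 (3.62 ± 0.25) and Bad (1.28 ± 0.058). Neighbors in this order did not overlap, except Pmaip1 with Bak1 and Bid with Bbc3. After CpG the order was Bax (6.73 ± 0.056), Bcl2l11 (5.25 ± 0.053), Bid (4.90 ± 0.13), Bak1 (4.40 ± 0.059), Bbc3 (4.32 ± 0.41), Pmaip1 (4.00 ± 0.63), Bmf (2.23 ± 0.24) and Bad (0.025 ± 0.35). Here Bak1 overlapped with Bbc3 and with Pmaip1, and Bbc3 overlapped with Pmaip1 and with Bid. Bid thus moved up past Bmf, Bak1 and Pmaip1, and Bax, Bcl2l11 and Bad kept their places. The ratio of Bid to Bmf was 7.92, 5.62 and 5.84 in CpG-stimulated samples 1, 2 and 3 and 0.745, 0.774 and 0.715 in unstimulated samples 1, 2 and 3. That of Bax to Bak1 was 5.02, 4.93 and 5.10 with CpG and 2.10, 2.61 and 2.50 without. Both ratios depended on the length used. Per length of the longest coding transcript, Bid to Bmf was 8.39 with CpG and 0.967 without, and Bax to Bak1 was 9.05 and 4.33. By that length Bid and Bmf were close together in unstimulated samples, with mean levels of 4.19 and 4.24.

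Added up per length, the changes of single members largely offset each other in the BH3-only genes. The 6 BH3-only genes tested summed to 115 ± 7.3 CPM per kb in unstimulated and 111 ± 11 in CpG-stimulated samples, since the activators went from 67.5 ± 2.3 to 88.5 ± 3.4 and the others from 47.7 ± 5.8 to 22.8 ± 7.9. Both effectors together went from 86.7 ± 1.8 to 127 ± 4.8 CPM per kb. All 8 members summed to 202 ± 9.1 without and 238 ± 14 with stimulation, a ratio of 1.18, and the share of Bax in this sum was 30.3% ± 1.0 and 44.5% ± 2.0. Per length of the longest coding transcript the sums were larger, with the effectors at 137 without and 214 with CpG and all 8 members at 290 and 367. These sums are descriptions of mRNA and were not tested.

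Anti-apoptotic genes, the partners of these proteins, had a larger change in their summed level. Of 8 such genes 7 were tested, and 5 were higher: Bcl2 (log2FC 2.54), Bcl2l1, which encodes BCL-XL (3.91), and the Bcl2a1a, Bcl2a1b and Bcl2a1d copies (4.45, 2.09 and 2.52), which are nearly identical, so that reads may be split among them. The log2FC of Bcl2a1a was 2.63 on log2(CPM + 1). Bcl2a1b shares 401 bases (49.1% of its exonic bases) with Gm29094 and Bcl2l2 594 bases (13.3%) with Gm20521, both on the same strand, and Bcl2 shares 558 bases (6.09%) with D630008O14Rik on the opposite strand. Bcl2l2 was lower (-0.92, adjusted p = 0.000341), and Mcl1 had a log2FC of 0.07 (95% interval -0.14 to 0.28, adjusted p = 0.525). The list had a median of 2.52, against -0.22 for the pro-apoptotic members and 0.0033 for all genes. Summed per length, anti-apoptotic genes stood at 2.49 ± 0.25 times the pro-apoptotic genes in unstimulated and 7.51 ± 0.43 times in CpG-stimulated samples. Per length of the longest coding transcript these ratios were 1.77 and 5.25. With CpG the Bcl2a1 copies held 1388 of the 1787 CPM per kb of merged exons. Without the copies the ratios were 1.08 ± 0.11 and 1.68 ± 0.059, or 0.786 and 1.46 by coding transcript length. Which of these sums was larger in unstimulated samples thus depended on the length used. For the pair of BCL-XL and BIM the turn was larger: Bcl2l1 was 0.275, 0.235 and 0.260 times Bcl2l11 in unstimulated samples 1, 2 and 3 and 4.54, 4.07 and 4.38 times in CpG-stimulated samples 1, 2 and 3. Mcl1, the partner of NOXA and BIM, was 4.70 ± 0.60 times Bcl2l11 without and 5.55 ± 0.75 times with CpG, or 2.95 and 3.48 times by coding transcript length.

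**Figure D3:**
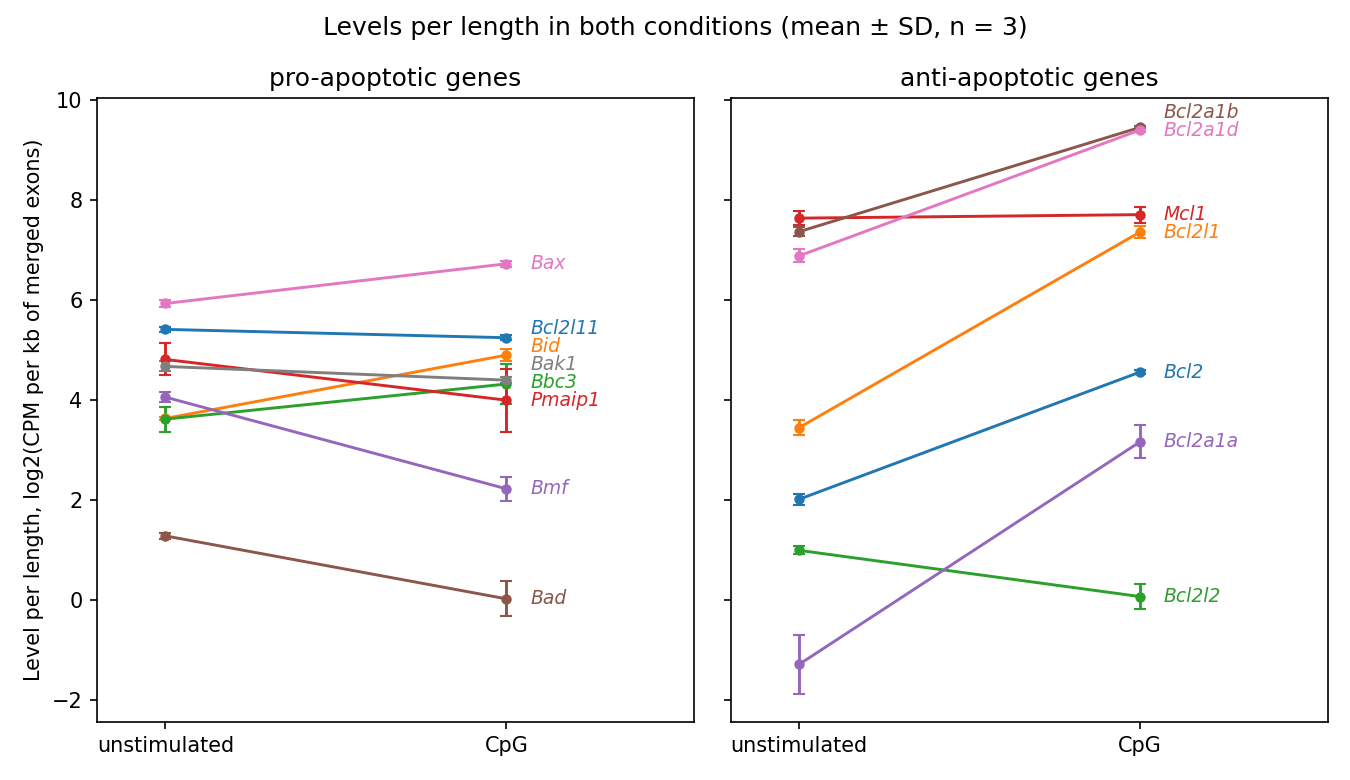
Level per length (log2 of CPM per kb of merged exons) of each pro-apoptotic gene (left) and anti-apoptotic gene (right) in unstimulated and CpG-stimulated samples, as mean ± SD over n = 3, with lines that join the means of a gene. The left panel shows Bax on top in both conditions, Bid crossing Pmaip1, Bak1 and Bmf on the way up and Bmf falling, and the right panel shows Bcl2l1 rising from 3.45 to 7.36 while Mcl1 lies at 7.64 and 7.71.

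The surrounding pathway was described with 11 lists of genes, the anti-apoptotic genes among them, of which 115 of 126 different genes were tested. Of these 44 were higher, 54 lower, and 17 did not pass, with a median log2FC of -0.12. Among all genes tested 37.6% were called higher and 36.7% lower, and the counts of single lists have the same background. Downstream of BAX and BAK1, 8 of 10 genes of mitochondrial release and the apoptosome were higher and 2 lower, with a median of 0.52. Those higher included Cycs, which encodes cytochrome c (log2FC 1.36), and the nuclease gene Endog (1.39). The lower ones were Casp9 (-2.09) and Apaf1 (-1.01), which encode the caspase and the scaffold of the apoptosome. All 5 caspase genes of the next list fell, with a median of -1.13, led by the executioner gene Casp6 (-1.90). Among 6 inhibitors of caspases 3 rose, with Cflar, which encodes the caspase 8 inhibitor FLIP, at 2.50 and Birc5, which encodes survivin, at 1.31, and 2 fell, Birc6 (-0.65) and Xiap (-0.50). Of 6 further BCL2 homologues and BNIP genes tested, 1 rose, Bnip1 (0.48), 2 fell, the mitophagy receptor genes Bnip3l (-1.10) and Bnip3 (-0.85), and 3 did not pass.

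Proteins that hold or modify BIM, BMF and BAD showed no common direction at the mRNA level. Of 9 genes of 14-3-3 proteins and dynein light chains, 4 were higher, with Ywhag at 0.81 and Ywhab at 0.43, and 2 lower, Ywhaz at -0.49 and Dynll2 at -0.29. The call of Dynll2 (adjusted p = 0.0297) was lost in 7 of 16 alternatives, and its log2FC was -0.16 (adjusted p = 0.0974) without unstimulated sample 1. It was also lost without CpG-stimulated sample 2 (adjusted p = 0.0512) or 3 (0.0706), and without pair 1 (0.104) or pair 3 (0.0689). Of 13 kinases that phosphorylate BIM or BAD, 7 were higher and 4 lower, with a median of 0.44. The largest increases were in Pim1 (2.01) and Rps6ka1 (1.65), whose kinases phosphorylate BAD, and Rps6ka3 was among those that fell (-0.89). A further list held genes that control the turnover of BCL2 family proteins in general, not only of BIM, BMF and BAD. They were higher in 3 of 11 cases, with Bag1 (0.65) and the ubiquitin ligase gene Fbxw7 (0.40) leading. In 7 they were lower, led by the ligase genes Btrc (-1.13) and Itch (-0.84). The call of Fbxw7 was lost with no filter on low values (adjusted p = 0.0505), and without pair 1 its log2FC was 0.26 (adjusted p = 0.0472).

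Transcription factors and other regulators of BH3-only gene transcription were split as well, with 6 of 16 higher, 8 lower and a median of -0.10. Jun (3.32) and Nfkb1 (1.71) had the largest increases, and Foxo3 (-2.00) and Egr1 (-1.93) the largest decreases. Of 17 FOXO target genes outside the family 14 were lower and 1 higher, with a median of -2.07, the most negative of all lists, and with Fbxo32 (-3.80) and S1pr1 (-3.71) at the low end and Trib1 (1.13) as the exception. Among family members known as FOXO targets, Bmf and Pmaip1 were lower, Bcl2l11 was slightly lower and Bbc3 was higher. The 17 p53 target genes outside the family had no common direction, with 6 higher, 9 lower and a median of -0.42. Fas (2.10) and Cdkn1a (1.91) rose, whereas Plk2 (-3.17) and Trp53inp1 (-2.67) fell, and the members known as p53 targets were likewise split, with Bax and Bbc3 higher and Pmaip1 lower. Of the other pathway genes named, Bnip3, Endog, Casp9, Birc6, Pim1, Rps6ka1, Jun, Cdkn1a, Fbxo32 and Btrc share exonic bases with a gene on the opposite strand.

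**Figure D4:**
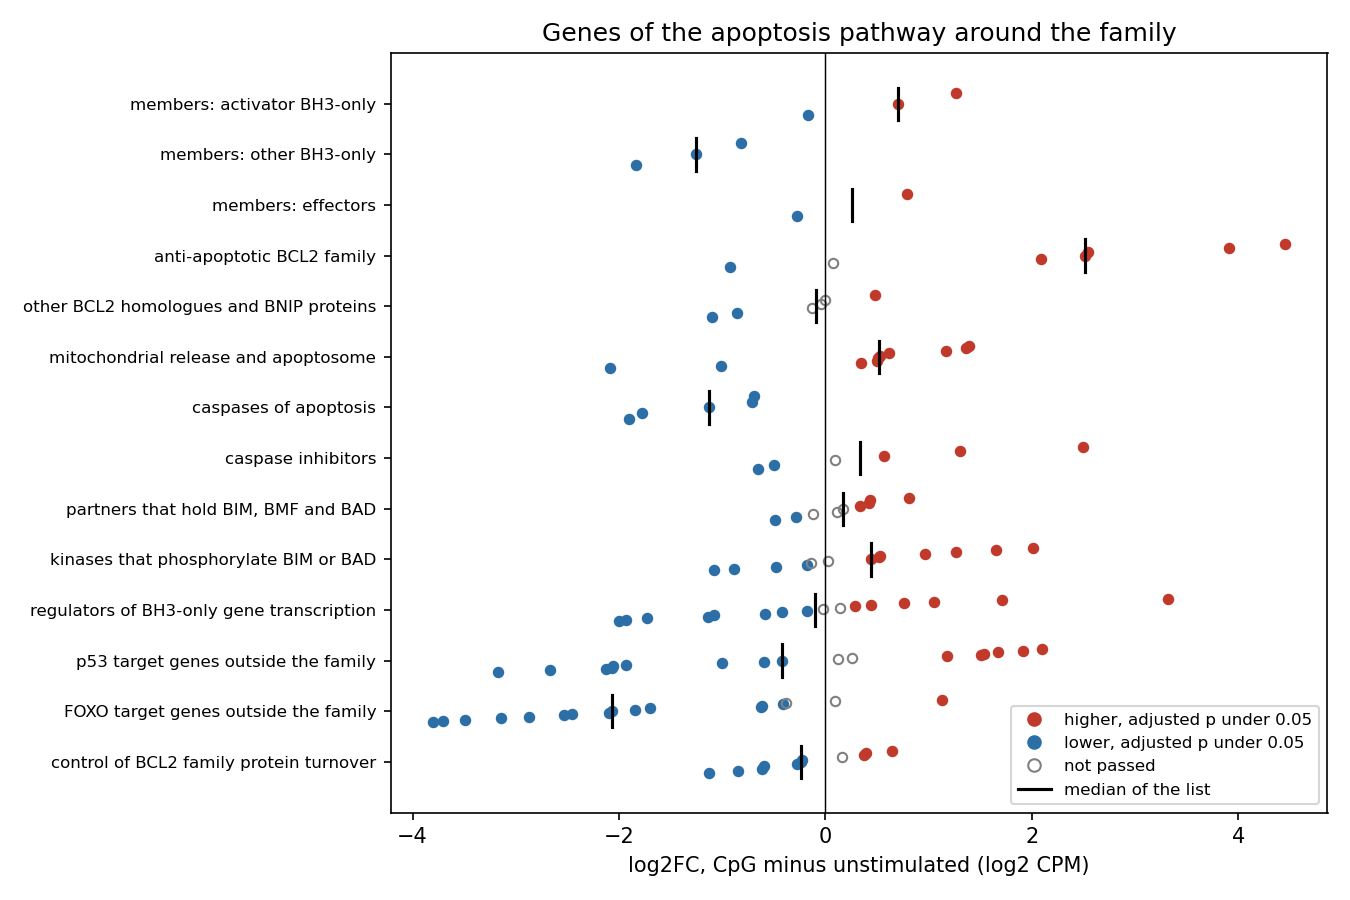
Log2FC (CpG-stimulated minus unstimulated, log2 CPM) of every gene tested in 3 groups of family members and 11 lists of the surrounding pathway, with red points for genes higher and blue points for genes lower at an adjusted p under 0.05, open points for genes that did not pass, and a black bar at the median of each list. The anti-apoptotic list lies mostly at 2 and above, all 5 caspase genes are below 0, and the FOXO target list is centered at -2.07.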

How the data were processed

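RNA-seq values of 3 CpG-stimulated and 3 unstimulated samples were used, and groups, numbers and sex were taken from the sample labels. The authors trimmed reads with Trim Galore 0.6.5, aligned paired reads to mm10 with STAR 2.6.1a, counted them per gene with featureCounts (Subread 2.0.1), then quantile normalized the counts and converted them with voom. What they deposited is log2 CPM per gene and sample. The kit marks strand, and the strand setting and annotation of the counting are not given in the sources used here. As depth differences are removed by quantile normalization, a change in total RNA per cell stays hidden, and read numbers derived from the zero level cover counting error only.

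The log2 values were tested as deposited with lmFit and a trended eBayes of limma 3.58.1 (R 4.3.3), two-sided, on the 11233 genes that exceeded 10 reads in 3 samples or more, with Benjamini-Hochberg adjustment over all of them. The procedure was run on simulated data with independent noise and few changed genes. That run does not cover variation shared by replicate number or a background in which most genes were called. Alternatives were 3 other filters, the replicate number as a block, log2(CPM + 1), no variance trend, samples centered on the median, each sample or numbered pair left out, and another gene length. Family members and pathway lists were chosen with earlier results of these data known, so list counts are descriptions. Named in the text are all members, the anti-apoptotic genes, and of each other list at most 2 genes with the largest and 2 with the most negative log2FC among those that passed, except that some genes this rule picks are not reported here. Samples of the same number varied together, with correlations of their deviations from the group means of 0.435, 0.224 and 0.300, against -0.281 to 0.0279 for other pairs. The labels give 3 mice, and the deposited values also carry a shift by number that can give such correlations. Whether samples of the same number came from the same mouse is not stated outright. The main test and the fits with samples or pairs left out did not use the replicate number. Variation shared within a number therefore stayed in their standard errors. Gene positions and lengths are from GENCODE (GRCm38) and promoters from RefSeq (GRCm38.p6).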

Additional observations from a re-analysis of the deposited data

Results flagged for a closer look

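In Mcl1, which encodes the anti-apoptotic partner of NOXA and BIM, the samples labeled male and female moved in opposite directions: CpG-stimulated minus unstimulated was -0.035 log2 CPM in the male pair (replicate 3) and 0.048 and 0.198 in the female pairs (replicates 1 and 2). The difference between sexes was not tested, it rests on 1 male pair, and Mcl1 itself did not pass the limma test over all 6 samples (log2FC 0.07, SE 0.096, adjusted p = 0.525). Among the other pathway genes that did not pass, Birc2 (-0.063 in the male pair, 0.144 and 0.200 in the female pairs), Ywhah (-0.027, 0.161 and 0.204) and Atf4 (0.033, -0.056 and -0.061) were split in the same manner, also untested.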

How the results depend on the processing

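Bid, Bmf, Bad and Bax kept their direction and their call in all 16 alternatives. Of 128 values of the 8 members 112 kept both, none reversed, and 16 in Bak1, Bbc3, Bcl2l11 and Pmaip1 lost the call. With no filter Bbc3 was at 0.70 (adjusted p = 0.121) and Pmaip1 at -0.81 (0.218), and with no variance trend Bcl2l11 was at -0.17 (0.0552) and Pmaip1 at -0.81 (0.0702), which left 3 members lower. On log2(CPM + 1) 1 member was lower by more than 1, as Bad reached -0.999. With samples or pairs left out, log2FC ran from -0.20 to -0.14 for Bcl2l11, from -1.17 to -0.55 for Pmaip1 and from -0.33 to -0.19 for Bak1, and 2 to 5 members were lower. The replicate block changed no call of a member. All 8 members had smaller standard errors with it, among them Bbc3 and Pmaip1 (0.082 and 0.098), and the lowest adjusted p of their alternatives. Klf2 and Ppp2ca were among the pathway genes that gained a call with the block. Of 1838 values of 115 pathway genes 1774 kept direction and call, 43 lost the call in 10 genes, 6 gained it in 3 and 15 reversed in 7. The reversals were all in genes that had not passed: with samples or pairs left out, log2FC ran from -0.004 to 0.16 for Mcl1, -0.037 to 0.026 for Bcl2l13, -0.13 to 0.024 for Bnip2, -0.012 to 0.072 for Mapk3, -0.084 to 0.045 for Atf4, -0.095 to 0.40 for Atf3 and -0.0035 to 0.19 for Il7r. Per length of the longest coding transcript, levels with and without CpG were 5.92 and 6.09 for Bcl2l11, 5.46 and 4.19 for Bid, 0.84 and 2.10 for Bad and 7.59 and 6.79 for Bax, and Bmf was at 4.24 without CpG. The causes of these differences were not tested. Depth limits Bik and Hrk, and Bad rests on few reads.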
